A study of Arabidopsis thaliana with 4 samples.

Results

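Adding the F-box protein UFO to a mutant form of the floral regulator LEAFY (LFY) was followed on naked Arabidopsis thaliana DNA through the 2 peak lists of the mutant protein. LFY K249R + UFO gave 8577 peaks and LFY K249R alone gave 9956. All 18533 peaks of these lists were used, out of 37490 in the 3 peak lists of the series, and the remaining list is that of unmutated LFY with UFO (18957 peaks). The lists were compared by 1 rule: a peak had a partner when a peak centre of the other list lay at most 200 bp away.

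The assay was ampDAP-seq, in which tagged protein is mixed with PCR-amplified genomic DNA, the protein is captured and the bound DNA is sequenced. LFY K249R + UFO is labelled as a LFY with 5 myc tags and the lysine-to-arginine change K249R, mixed with a recombinant complex of ASK1 and a UFO carrying 3 FLAG tags. LFY K249R is the same tagged mutant without the complex, and LFY + UFO is the unmutated tagged LFY with it. The fourth sample, input DNA without tagged protein, had no peak list that was used here. Every preparation received DNA of wild-type Col-0 seedlings aged 2 weeks, and the LFY proteins were made in an in vitro transcription and translation extract. The tested factor was therefore the presence of ASK1-UFO beside a mutant LFY, outside cells and without chromatin.

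LFY is a plant-specific transcription factor that starts flower development by binding DNA next to genes such as APETALA1 and AGAMOUS. UFO is an F-box protein, the part of an SCF ubiquitin ligase that takes up substrates, and ASK1 is the adaptor that links F-box proteins to the rest of that ligase. In flowers UFO works together with LFY on APETALA3, a gene needed for petals and stamens. The title of the series describes UFO as a cofactor that moves LFY to other DNA elements. The pair of mutant lists shows which sites a LFY with the lysine change held when that cofactor was added.

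Most sites of the mutant protein were listed in both cases, and the list with UFO was the shorter. It was 0.861 times as long as the list without UFO, a difference of -1379 peaks (with UFO minus without). In the list with UFO, 773 of 8577 peaks (9.01%; exact 95% binomial interval 8.41% to 9.64%) had no partner without UFO, and these are called appeared peaks. In the list without UFO, 2152 of 9956 (21.6%; 20.8% to 22.4%) had no partner with UFO, and these are called absent peaks. There were thus 2.78 absent peaks for each appeared peak. The remaining 7804 peaks of each list are called shared. These words describe membership of a list, and the lists cannot separate weak binding that failed peak calling from no binding.

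Each condition is a single list of positions that the authors merged from 2 replicates, with no height or count per peak, so no test between the conditions could be made. Intervals here cover counting error over peaks and not the spread between replicates. Read depth is unknown. The length of a list can depend on depth and on calling, and their part in the difference was not tested.

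**Figure D1:**
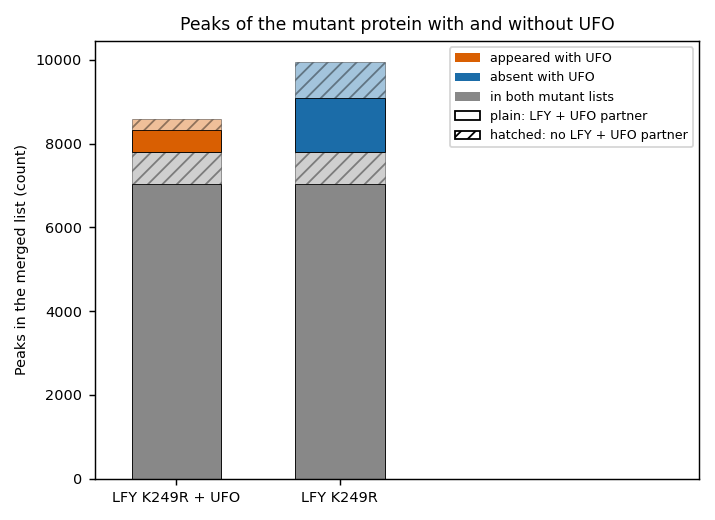
Peaks in the merged LFY K249R + UFO list (left bar) and LFY K249R list (right bar), as counts. Grey is the 7804 shared peaks, orange the 773 appeared peaks and blue the 2152 absent peaks, and the hatched part of each block is the peaks without a LFY + UFO peak within 200 bp.

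On each of the 5 nuclear chromosomes, absent peaks made up a larger share of their list than appeared peaks did of theirs. Appeared peaks made up 8.70% to 9.86% of the LFY K249R + UFO peaks of a chromosome. Absent peaks made up 20.4% to 24.0% of the LFY K249R peaks of a chromosome, with the highest value on chromosome 4 (24.0%; 21.9% to 26.1%) and the lowest on chromosome 2 (20.4%; 18.5% to 22.4%). The intervals of those extremes overlapped only between 21.9% and 22.4%, and no test between chromosomes was made.

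Where the mutant held a site in both conditions, most paired centres lay within 20 bp of each other. The rule caps this distance at 200 bp, so a centre that moved farther would be counted as an appeared and an absent peak. The median distance between the paired centres was 6 bp, and 90% of pairs lay within 18 bp (90th percentile). Centres were identical in 387 pairs (4.96%) and no more than 20 bp apart in 7188 (92.1%; 91.5% to 92.7%). Only 73 pairs (0.935%; 0.734% to 1.17%) were more than 50 bp apart and 16 more than 100 bp. The centre with UFO lay at the lower coordinate in 48.2% of pairs and at the higher in 46.8%, and the median signed offset was 0 bp. Nearest neighbours were mutual for 7802 of the 7804 shared LFY K249R peaks.

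Few peaks lay near the limit of the distance rule. Only 4 LFY K249R + UFO peaks had their nearest LFY K249R centre just inside the limit, between 150 and 200 bp, and 12 had it just outside, between 200 and 250 bp. Among LFY K249R peaks these counts were 5 and 5. Most unpartnered peaks stood far from any peak of the other list: 84.5% of appeared peaks (81.7% to 87.0%) and 88.3% of absent peaks (86.9% to 89.7%) had no centre of the other list within 1 kb. The median distance to the nearest centre of the other list was 3821 bp for appeared peaks and 4865 bp for absent peaks.

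Some of the unpartnered peaks stood beside a shared site. Of the 120 appeared peaks with a LFY K249R centre within 1 kb, 97 had as that neighbour a peak that was itself shared. Of the 251 absent peaks with a LFY K249R + UFO centre within 1 kb, 228 had a shared neighbour. At these places one list held an additional peak next to a common one. In the other 23 appeared and 23 absent peaks the neighbour was unpartnered too, so that each list held its own peak. Shared peaks made up 78.4% of the whole list without UFO and 91.0% of the whole list with it. The counts of shared neighbours, 97 of 120 and 228 of 251, lay close to those shares. No preference for a place beside a shared site is therefore read from them. The share of peaks with another peak of the same list within 1 kb was 12.9% (10.7% to 15.5%) for appeared, 13.1% (11.7% to 14.6%) for absent and 12.6% (11.9% to 13.3%) for shared peaks taken at their LFY K249R + UFO centres. Shared peaks at their LFY K249R centres, the list of the absent peaks, gave 14.2% (13.5% to 15.0%). Within 2 kb, a distance chosen after seeing the data, the shares were 29.2% for appeared and 27.0% for absent peaks, and for shared peaks 25.4% at their LFY K249R + UFO and 28.5% at their LFY K249R centres. The longer LFY + UFO list had 27.5% (26.9% to 28.2%) within 1 kb.

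**Figure D2:**
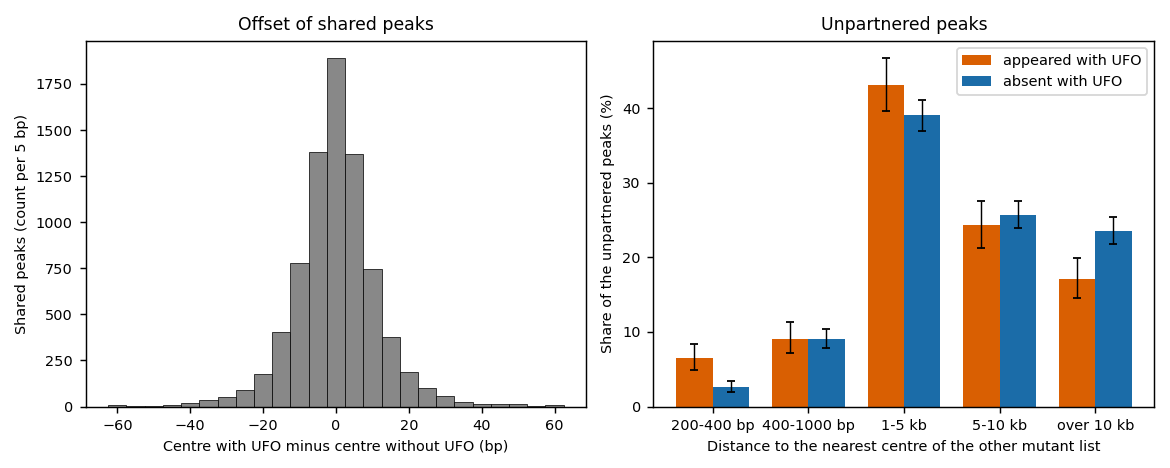
Left: distance from the LFY K249R centre to the LFY K249R + UFO centre in the shared peaks, in bp, as counts per 5 bp, drawn to about 60 bp on either side. Right: share of the 773 appeared (orange) and 2152 absent (blue) peaks by distance to the nearest centre of the other mutant list, with exact 95% binomial intervals. Shared centres gather around 0 bp, while 84.5% of appeared and 88.3% of absent peaks lie more than 1 kb from the other list.

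The LFY + UFO list took no part in making the classes, and the share of peaks with a partner in it differed between them. Shared peaks were called in 2 lists and the other classes in 1. A higher share for shared peaks in a further list was therefore likely in advance and is not read as a separate result. A LFY + UFO partner was found for 530 of the 773 appeared peaks (68.6%; 65.2% to 71.8%) and for 1273 of the 2152 absent peaks (59.2%; 57.0% to 61.2%). It was found for 7045 of the 7804 shared peaks (90.3%; 89.6% to 90.9%). The appeared share was higher than the absent share on 5 of 5 chromosomes, with 63.0% to 72.5% for appeared and 56.4% to 63.0% for absent peaks. On chromosome 1 the 2 shares were close, at 63.0% (55.8% to 69.9%) for appeared and 60.5% (56.3% to 64.6%) for absent peaks. The intervals of these classes also overlapped on chromosomes 2, 3 and 4. They were apart only on chromosome 5, at 65.3% to 78.9% for appeared and 53.3% to 62.4% for absent peaks. The nearest LFY + UFO centre was more than 1 kb away for 23.0% (20.1% to 26.2%) of appeared peaks, 31.6% (29.6% to 33.6%) of absent peaks and 7.50% (6.92% to 8.10%) of shared peaks.

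Appeared peaks lined up less closely with their LFY + UFO partners. The median distance to the LFY + UFO centre was 20 bp (quartiles 9 and 36.8 bp, 530 peaks) for appeared peaks, 12 bp (5 and 23 bp, 1273 peaks) for absent peaks and 9 bp (4 and 18 bp, 7045 peaks) for shared peaks at their LFY K249R + UFO centres. A distance over 50 bp was seen in 12.8% (10.1% to 16.0%) of appeared, 6.68% (5.37% to 8.19%) of absent and 4.68% (4.20% to 5.20%) of shared peaks. The appeared median was above the absent one on 5 of 5 chromosomes, at 17 to 24 bp for appeared and 10 to 13 bp for absent peaks. Shared peaks gave 9 bp on every chromosome. The shared and the appeared centres come from the same LFY K249R + UFO list, so the distance differed within that list. Peak height could not be set beside these distances, since the lists hold none.

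**Figure D3:**
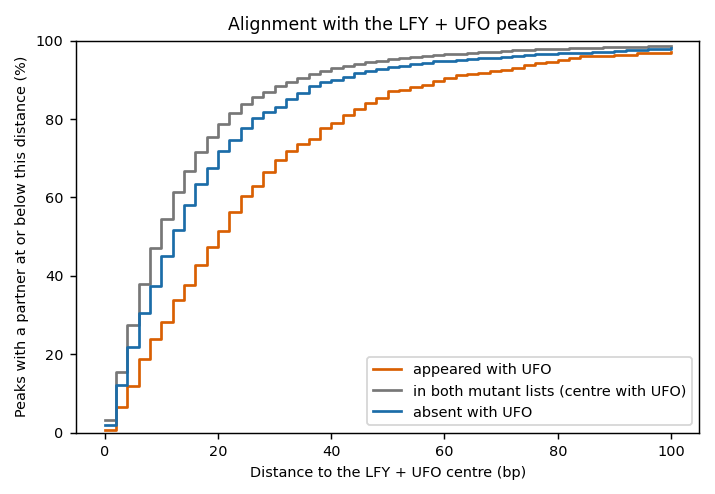
Cumulative share of peaks by distance to their LFY + UFO partner centre, in bp, for appeared (orange), absent (blue) and shared peaks at their LFY K249R + UFO centres (grey); peaks without a partner within 200 bp are left out. The orange line lies lowest, with a median of 20 bp against 12 bp for absent and 9 bp for shared peaks.

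Peak centres were then placed on the RefSeq gene table of assembly TAIR10.1, whose nuclear chromosomes are those of TAIR10, the build named in the submitters' processing notes. The table gives the ends of each gene and no strand, so upstream and downstream, exons, introns and UTRs could not be told apart. Protein-coding genes cover 54.1% of the genome. They held 55.6% (52.0% to 59.2%) of appeared peaks, 53.5% (51.4% to 55.7%) of absent peaks and 54.0% (52.8% to 55.1%) of shared peaks. All 3 classes of mutant peak thus sat inside genes about as often as a base of the genome does. The LFY + UFO list had 64.7% (64.0% to 65.4%) inside protein-coding genes, and its 10088 peaks with no partner in either mutant list had 70.3% (69.4% to 71.2%).

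The kilobase flanking a gene held more mutant peaks than its share of the genome. Within 1 kb of a protein-coding gene, outside genes and pseudogenes, lay 24.2% (21.2% to 27.4%) of appeared, 23.1% (21.4% to 25.0%) of absent and 25.9% (24.9% to 26.9%) of shared peaks, against 19.8% of the genome. The LFY + UFO list had 19.0% (18.4% to 19.5%) there. Pseudogenes, which in this annotation include transposable element genes, held 4.27% (2.96% to 5.94%) of appeared, 4.51% (3.67% to 5.47%) of absent and 3.91% (3.49% to 4.36%) of shared peaks, against 8.68% of the genome.

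Absent peaks reached farther from genes than the other classes. More than 3 kb from a protein-coding gene, pseudogenes included, lay 7.63% (5.86% to 9.74%) of appeared, 11.5% (10.2% to 12.9%) of absent and 8.19% (7.59% to 8.82%) of shared peaks, against 14.3% of the genome. The absent share was above the appeared share on 5 of 5 chromosomes, but the gap was small on chromosome 2 (13.5% of appeared and 14.2% of absent peaks). The intervals of these classes overlapped on every chromosome. Over 3 kb from any annotated gene, pseudogenes and non-coding RNA genes included, the shares were 0.906% (0.365% to 1.86%), 1.35% (0.904% to 1.93%) and 1.23% (0.998% to 1.50%) for appeared, absent and shared peaks, and the intervals overlapped.

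**Figure D4:**
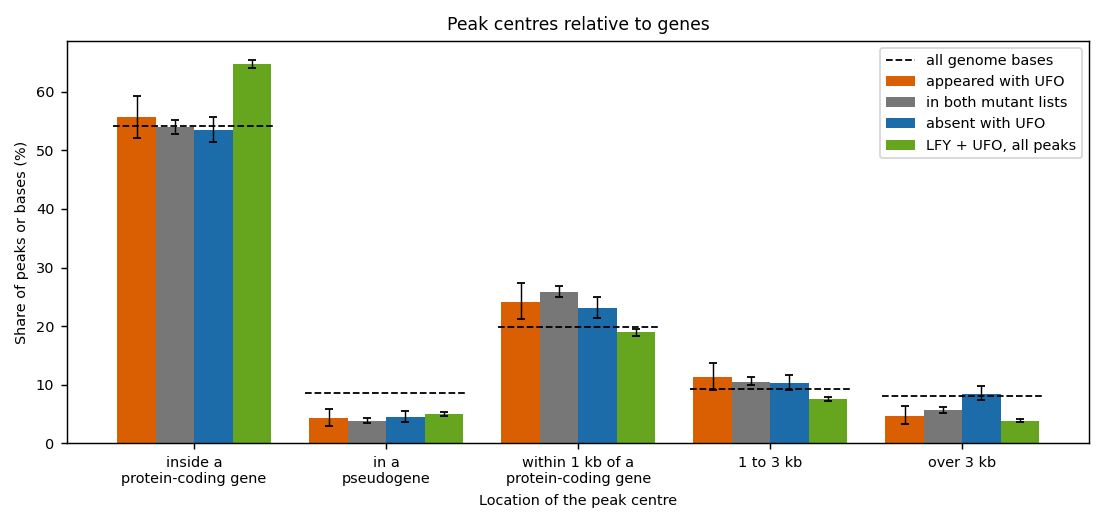
Share of peak centres in 5 exclusive locations, in percent, for appeared (orange), shared (grey, LFY K249R + UFO centres) and absent (blue) peaks and for the whole LFY + UFO list (green), with exact 95% binomial intervals; the dashed line is the share of all genome bases, and the 1 to 3 kb and over 3 kb locations leave out pseudogenes. Mutant classes lie near the dashed line inside protein-coding genes, at 53.5% to 55.6% against 54.1%, while LFY + UFO stands at 64.7%.

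The share of sites also found in the LFY + UFO list differed by location. Inside protein-coding genes a LFY + UFO partner was found for 78.6% (74.4% to 82.4%) of appeared, 70.3% (67.6% to 72.9%) of absent and 94.6% (93.9% to 95.3%) of shared peaks. Outside them the shares were 56.0% (50.5% to 61.3%), 46.3% (43.2% to 49.4%) and 85.2% (84.0% to 86.3%) in the same order. More than 3 kb from a protein-coding gene they were 62.7% (49.1% to 75.0%) for the 59 appeared, 34.3% (28.4% to 40.5%) for the 248 absent and 85.9% (83.0% to 88.5%) for the 639 shared peaks. The peaks more than 3 kb away are a part of those outside protein-coding genes. Inside genes, outside them and in that part, the appeared share was above the absent share and below the shared one. As stated above, the higher share of the shared peaks is not read as a separate result.

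At the level of genes, a LFY K249R + UFO peak lay inside or within 3 kb of 13021 of the 27444 protein-coding genes (47.4%). A LFY K249R peak did so for 14290 genes (52.1%), and a LFY + UFO peak for 20820 (75.9%). With UFO, 755 genes (2.75%) had a mutant peak in this window that they lacked without it, and 2024 (7.38%) had one without UFO and none with it. A shared peak whose paired centres fall on either side of the window edge can also place a gene in these counts. An appeared peak lay within the window of 1594 genes (5.81%) and an absent peak within that of 3922 (14.3%). A peak between neighbouring genes counts for each of them.

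Genes of flower development were read from lists of 22 floral genes, 24 genes of meristems and floral organs and 7 auxin genes. Of these 53 genes, 37 (69.8%; 55.7% to 81.7%) had a LFY K249R + UFO peak in the window and 40 (75.5%; 61.7% to 86.2%) had a LFY K249R peak, against 47.4% and 52.1% of all genes. The floral list was drawn up from genes known to be bound by LFY or to act beside it, and the listed genes are longer, with a median length of 2612 bp against 2078 bp for all protein-coding genes. The lists were also chosen with earlier results of these data known, so the excess over all genes is not independent of these data. Floral genes had a peak in 19 of 22 cases with UFO and in 19 of 22 without. For meristem and organ genes the counts were 16 with UFO and 18 without, of 24, and for auxin genes 2 with UFO and 3 without, of 7.

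Most peaks at listed genes were held in both conditions. Of the 64 LFY K249R + UFO peaks there, 62 were shared, and 2 (3.12%; 0.381% to 10.8%) had appeared, against 9.01% over the whole list. Of the 74 LFY K249R peaks there, 12 (16.2%; 8.67% to 26.6%) were absent with UFO, against 21.6% over the whole list. Both intervals include the value of the whole list, but they treat several peaks at the same gene as independent. The median offset of the 62 shared pairs was 6 bp. At 28 of the 53 genes both lists held the same peaks and no other. No such count over all protein-coding genes is given here, so it is not read as particular to the listed genes.

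APETALA3 (AP3, AT3G54340), which gives petals and stamens their identity, had 4 LFY K249R + UFO peaks, and each was shared. They lay at chr3:20116030-20116429, below the lower-coordinate end of the gene by 2910 bp, at chr3:20119392-20119791 and chr3:20119880-20120279 inside the gene, and at chr3:20121592-20121991, which is 478 bp beyond the higher end. Without UFO the centres were shifted by 2, 8, 76 and 4 bp. The 76-bp offset is the largest of the 62 shared pairs at listed genes, and the next is 24 bp. There the centre with UFO stood 80 bp from the LFY + UFO centre and the centre without UFO 4 bp from it. The lowest of the 4 had no LFY + UFO partner, with the nearest LFY + UFO centre 3359 bp from the centre with UFO. The LFY + UFO list had 2 AP3 peaks that neither mutant list held. That at chr3:20121140-20121539, 26 bp beyond the higher end, had its nearest LFY K249R + UFO centre 452 bp away and its nearest LFY K249R centre 448 bp away. That at chr3:20123782-20124181, 2668 bp beyond the higher end, had them 2190 and 2194 bp away.

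PISTILLATA (PI, AT5G20240), the partner of AP3 in petals and stamens, kept a distant peak and lacked the one at the gene. A peak at chr5:6826072-6826471, 2632 bp below the lower end, was shared with a 4-bp offset. The LFY K249R peak at chr5:6828544-6828943, 160 bp below the lower end, had its nearest LFY K249R + UFO centre 2472 bp away. LFY + UFO held that site, with its centre 5 bp away.

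The MADS-box genes that give a meristem floral identity differed between the lists beside constant peaks. APETALA1 (AP1, AT1G69120) had 2 LFY K249R + UFO peaks, at chr1:25980562-25980961 and chr1:25986319-25986718, each 2 bp from its LFY K249R counterpart. Without UFO it had 2 further peaks, at chr1:25981125-25981524 and inside the gene at chr1:25984832-25985231, and neither had a LFY + UFO partner. CAULIFLOWER (CAL, AT1G26310), the close relative of AP1, carried the one appeared peak of the floral list, at chr1:9103984-9104383, 540 bp beyond the higher end. The nearest LFY K249R centre was 1503 bp away, and a LFY + UFO centre lay 36 bp away. FRUITFULL (FUL, AT5G60910), named AGL8 in the table, kept a peak inside the gene and lacked the LFY K249R peak at chr5:24507096-24507495, which had no LFY + UFO partner.

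AGAMOUS (AG, AT4G18960), which specifies stamens and carpels, kept both peaks inside the gene, at chr4:10385842-10386241 and chr4:10386429-10386828, with offsets of 5 and 4 bp. The LFY K249R list had 2 more. The peak at chr4:10385499-10385898 stood 343 bp from the first shared centre with UFO and had no LFY + UFO partner. The peak at chr4:10380465-10380864, 2191 bp below the lower end, did have a LFY + UFO centre, 44 bp away. LMI2 (AT3G61250), a MYB factor downstream of LFY named MYB17 in the table, lacked with UFO its LFY K249R peak at chr3:22669854-22670253, which LFY + UFO held 11 bp away, and kept a peak 1282 bp beyond the higher end that LFY + UFO did not hold.

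The other floral genes with mutant peaks were the same in both lists. SEPALLATA3 (SEP3, AT1G24260), a cofactor of the organ identity proteins, had 3 shared peaks with offsets of 4, 13 and 9 bp. SOC1 (AT2G45660, AGL20 in the table), an integrator of flowering signals, had 3 with offsets of 0, 5 and 6 bp. RAX1 (AT5G23000, MYB37 in the table), a MYB gene of axillary meristems, had 4 with offsets of 4, 6, 7 and 0 bp, and all 4 were held by LFY + UFO. TFL1 (AT5G03840), which keeps the shoot tip from turning into a flower, had 1 peak with identical coordinates in both mutant lists, chr5:1021781-1022180. LFY itself had 2 shared peaks and UFO 1. The peak of APETALA2 (AP2, AT4G36920), 1481 bp beyond its higher end, was shared by the mutant lists, and the nearest LFY + UFO centre was 6281 bp away. SEP2, FT and SVP had no mutant peak in the window, and SEP2 and FT each had a LFY + UFO peak inside the gene.

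Of the 22 floral genes, 1 thus carried an appeared peak and 5 an absent one. Among the 24 meristem and organ genes the counts were 1 and 3. Over all protein-coding genes, 5.81% had an appeared and 14.3% an absent peak in the window, and from counts this small nothing particular to either list is read. STM (AT1G62360), a homeobox gene that keeps the shoot meristem going, lacked with UFO the LFY K249R peak at chr1:23062358-23062757 and kept a peak inside the gene. RBE (AT5G06070), a gene of petal growth, and RPL (AT5G02030), a homeobox gene of the fruit, each had no LFY K249R + UFO peak and a single LFY K249R peak, inside the gene, and neither peak had a LFY + UFO partner. CUC2 (AT5G53950), an organ boundary gene, had an appeared peak at chr5:21905157-21905556 whose nearest LFY + UFO centre was 1466 bp away, beside 2 shared ones. ETT (AT2G33860), an auxin response factor of the carpel, kept 3 peaks with offsets of 11, 10 and 2 bp, and CRC (AT1G69180), a carpel gene, kept 1 peak 133 bp below its lower end with an offset of 8 bp.

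Of the auxin genes, YUC4 (AT5G11320), an enzyme of auxin synthesis, kept both peaks inside the gene, with offsets of 0 and 8 bp. PID (AT2G34650), a kinase that directs auxin transport, and MP (AT1G19850), an auxin response factor needed to start flowers, each lacked with UFO a LFY K249R peak that LFY + UFO held, with LFY + UFO centres 18 bp and 10 bp away. YUC1, TAA1 and AHP6 had no peak in any of the 3 lists. Over all listed genes, a LFY + UFO partner was found for 1 of the 2 appeared, 5 of the 12 absent and 57 of the 62 shared peaks. Over all peaks these shares were 68.6%, 59.2% and 90.3%. Of the 104 LFY + UFO peaks at these genes, 41 (39.4%; 30.0% to 49.5%) were in neither mutant list, against 53.2% over the whole LFY + UFO list. The 104 peaks lie at 46 genes, and the interval treats peaks at 1 gene as independent. The genes were also chosen with earlier results of these data known, so nothing is read from this contrast.

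**Figure D5:**
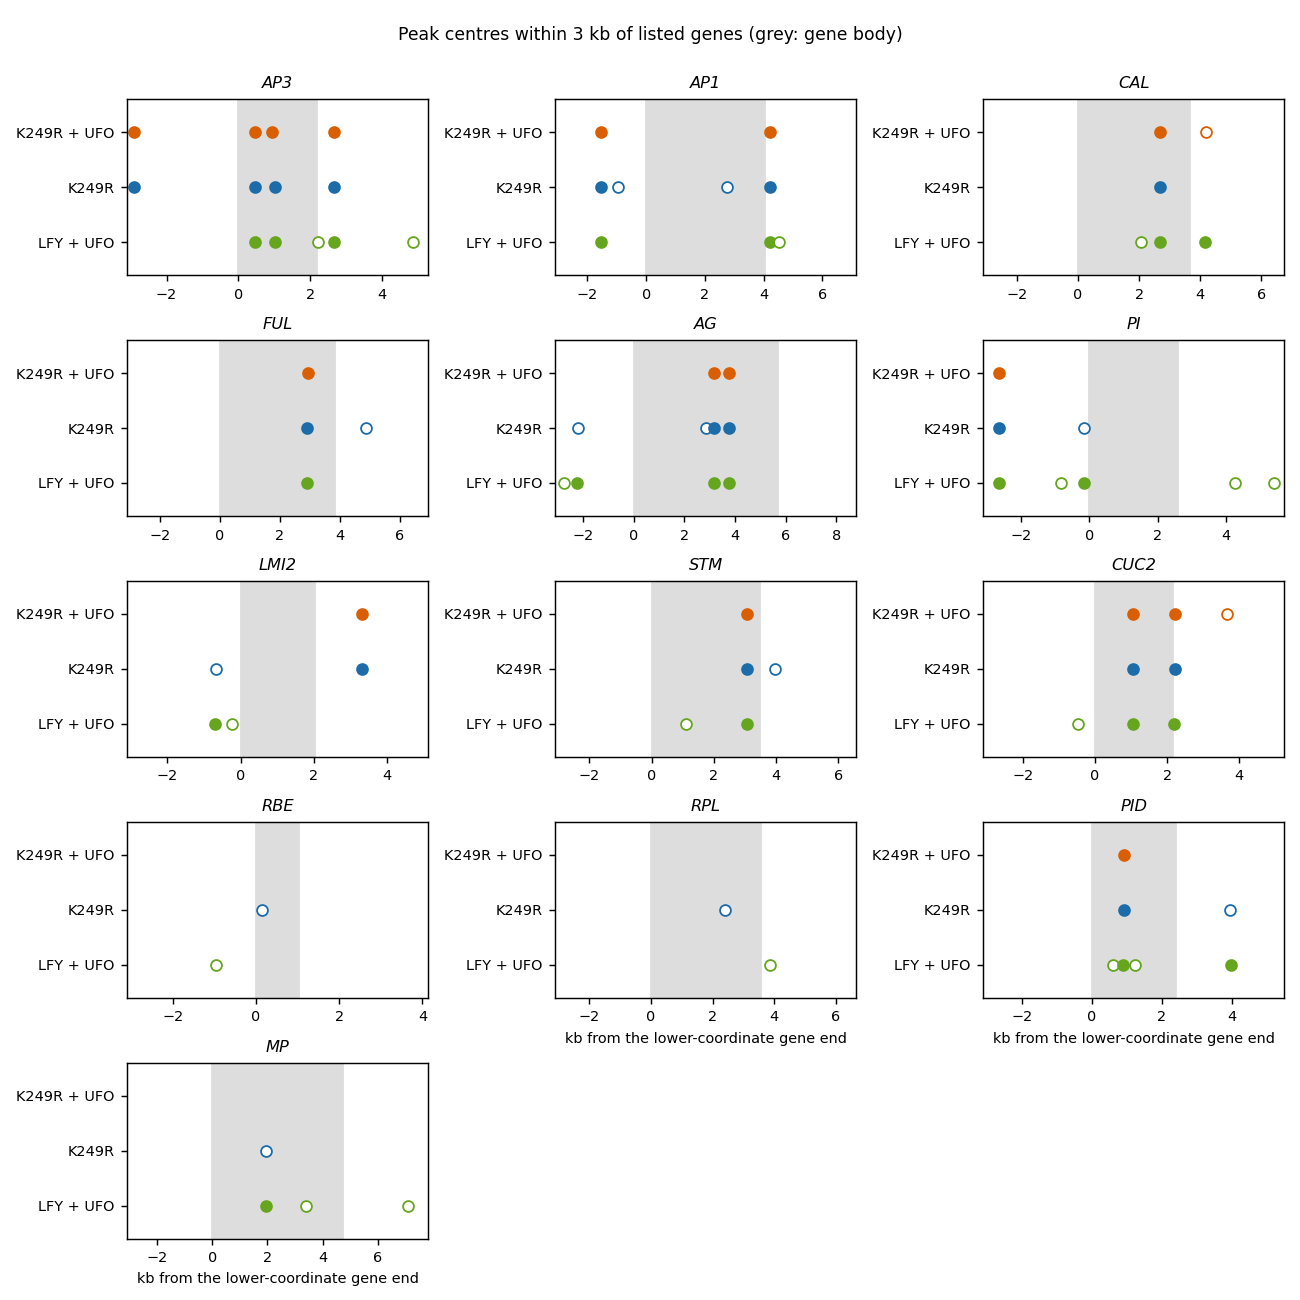
Peak centres at AP3 and at the 12 listed genes with an appeared or absent peak, against distance from the lower-coordinate end of the gene in kb, with the gene body in grey. Rows are LFY K249R + UFO (orange), LFY K249R (blue) and LFY + UFO (green); open circles are peaks without a partner in the other mutant list or, for LFY + UFO, in either mutant list. All 4 AP3 peaks of the mutant are filled, and there are 2 orange open circles against 12 blue ones.

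Genes that gathered 3 or more unpartnered peaks of 1 class within 3 kb were few. There were 2 with appeared peaks and 15 with absent peaks, out of 27444. SHD (AT4G24190), an HSP90 chaperone, had 3 LFY K249R + UFO peaks, all of them appeared, against 1 LFY K249R peak. The locus AT5G51970 had 3 LFY K249R + UFO peaks and 0 LFY K249R peaks. SNL5 (AT1G59890), a SIN3-like gene, had 1 LFY K249R + UFO peak and 5 LFY K249R peaks, of which 4 were absent with UFO. PUB4 (AT2G23140), a plant U-box gene, and NAC2 (AT3G15510), a NAC domain gene, each had 0 peaks with UFO and 3 without, and LFY + UFO had 3 and 4 peaks at them. Genes of the absent group that are not named here had 1 to 4 LFY + UFO peaks. Neighbouring genes in this group can share peaks, since the windows overlap.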

How the data were processed

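The deposited files give peak positions with no value per peak (chromosome, start, end). Bowtie2, SAMtools, MACS2 and the build TAIR10 are named in the submitters' processing notes; versions, thresholds and the use of the input library are not given in the sources used here. Per the labels, peaks common to 2 replicates were kept for each mutant list and peaks common to 3 for LFY + UFO. Every interval is 400 bp wide, so the centre was taken as the position. Coordinates are printed 1-based.

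Centres were matched at 200 bp, and shares carry exact (Clopper-Pearson) 95% intervals. Genes came from RefSeq (TAIR10.1), with 27444 protein-coding genes on the nuclear chromosomes; 53 of 53 listed genes matched by symbol or synonym, SEP1 and SEP2 by their MADS-box synonyms. Since the table has no strand, the planned window (3 kb before, 1 kb after) became 3 kb on either side. The planned promoter classes and the naming of the peaks nearest a gene start were not made. Motif and base composition were not analysed, for want of a genome sequence here. Named genes were taken from the lists and from the genes with 3 or more unpartnered peaks of a class, of which only some are named. A listed auxin gene is not reported here. Members and lists were chosen with earlier results of these data known. The matching code was tested on simulated lists. The software was Python 3.11.15 with scipy 1.17.1, numpy 2.4.6, matplotlib 3.10.9 and pandas 2.3.3.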

Additional observations from a re-analysis of the deposited data

How the results depend on the processing

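The shares of LFY K249R + UFO peaks found without UFO and of LFY K249R peaks found with UFO stayed within their intervals under the 4 alternatives planned (centres within 100 bp, 80% overlap, 1-bp overlap, peaks of a list merged first). The share with a LFY + UFO partner moved, under 80% overlap, to 64.2% for appeared, 57.0% for absent and 88.7% for shared peaks, and to 89.2% for shared peaks with centres within 100 bp. Counting all annotated genes, chosen after seeing the data, moved the share inside a gene to 60.7%, 59.2% and 59.1% for appeared, absent and shared peaks, and the share over 3 kb away to 0.906%, 1.35% and 1.23%, since more genes are counted. Counting genes within 1 kb, chosen after seeing the data, left 27, 32 and 40 of the 53 listed genes with a LFY K249R + UFO, LFY K249R and LFY + UFO peak. The shares of all protein-coding genes were 28.7%, 32.2% and 53.1%. The first 2 counts of listed genes fall below the intervals given for 3 kb. Counting gene bodies alone, also chosen after seeing the data, left 19 listed genes with a LFY K249R + UFO peak, 23 with a LFY K249R peak and 28 with a LFY + UFO peak, by the narrower window. Of all protein-coding genes, 15.4%, 17.5% and 34.4% had such a peak in the gene body, in the same order. Leaving out each chromosome, also not planned, gave an excess of appeared over absent peaks in the LFY + UFO partner share of 7.88 to 11.7 percentage points, against 9.41 with all. Of 52 alternatives over 21 results, 36 stayed within limits, 16 moved and 0 changed sign; the limits were the 95% interval for a share, a factor of 1.5 for a count of genes, the quartiles for a median distance and the sign for the excess. The neighbour shares within 2 kb are among those that moved. The alternatives on motif, base composition and promoter windows were not run. No paired analysis was possible because the authors deposited 1 merged list for a condition, which also prevented leaving out a replicate. Depth is unknown, which limits every statement on a peak missing from a list.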

Other observations

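Genes for microRNAs and tRNAs had a mutant peak nearby in a smaller share than protein-coding genes. A LFY K249R + UFO peak lay within 1 kb of 49 of 326 microRNA genes (15.0%; exact 95% interval 11.3% to 19.4%) and a LFY K249R peak within 1 kb of 53 (16.3%; 12.4% to 20.7%). For 625 tRNA genes the counts were 105 with UFO (16.8%; 14.0% to 20.0%) and 116 without (18.6%; 15.6% to 21.8%), and for the longer protein-coding genes the shares were 28.7% with UFO and 32.2% without. A window of 1 kb on either side is wider for a longer gene, and no share here was adjusted for gene length. No difference between kinds of gene is therefore read from these shares. An appeared peak lay near 1 of the 326 microRNA genes (0.307%) and an absent peak near 8 (2.45%), against 3.03% and 7.91% of protein-coding genes at the same distance. The appeared peak lay near MIR167a (AT3G22886), which had 1 LFY K249R + UFO peak and 0 LFY K249R peaks. Among the microRNA genes with an absent peak, MIR160c (AT5G46845) had 1 LFY K249R + UFO and 2 LFY K249R peaks. MIR168a (AT4G19395) had 0 peaks with UFO and 1 without. These microRNA genes were chosen after their values were seen.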
